A study of Mus musculus with 22 samples.

Results

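Germline and meiosis genes were followed through 16 chromatin immunoprecipitation sequencing (ChIP-seq) peak lists from mouse intestinal crypts and embryonic stem cells. The set holds 53 genes chosen by name, all of them found among 21883 protein-coding genes of the RefSeq table for mm10. A gene was counted as having a peak when any peak lay within 1 kb of either gene end. The Polycomb repressive complex 1.6 (PRC1.6) is a variant PRC1 in which PCGF6 pairs with the ubiquitin ligase RING1B and with the DNA-binding partners MGA, MAX, E2F6 and DP1. It is best known for holding germline and meiosis genes silent in embryonic stem cells, where MGA with MAX recognises E-boxes and E2F6 with DP1 recognises E2F sites. H2AK119ub1 is the histone mark that RING1B deposits, The insulator protein CTCF binds DNA and halts cohesin, to which RAD21 belongs.

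The crypts were small-intestinal epithelium labelled C57BL/6, wild type or knockout for Pcgf6, from 2 Cre lines. AhCre is driven by an aryl-hydrocarbon-inducible promoter and is switched on with β-naphthoflavone (BNF), and Villin-Cre is driven by an intestinal epithelial promoter and is switched on with tamoxifen. The series' design text, worded for RNA libraries, gives male mice aged 8 to 12 weeks and crypts taken 7 days after induction; whether it covers the ChIP crypts, and whether the wild-type mice carried Cre or received the inducer, is not given in the sources used here. AhCre crypts were profiled for PCGF6, RING1B and H2AK119ub1 and Villin crypts for RING1B, H2AK119ub1, CTCF and RAD21, each in wild type and knockout. E14 embryonic stem cells, an established mouse line, were wild type and profiled for PCGF6 and RING1B. Each group is 1 library, so no difference below has a replicate error or a test. Lists held from 1662 peaks (RING1B, knockout AhCre crypts) to 32651 (CTCF, wild-type Villin crypts). PCGF6 gave 17163 peaks in wild-type AhCre crypts, 4779 in the knockout and 7850 in stem cells, and read depth is unknown. The peak score is the authors' −log10 of a p or q value (which of these is not stated), at least 10 in every list and not scaled between libraries, so levels are set across lists by the rank within each list. Cell type markers could not be checked, since peak lists hold no expression values. In bulk chromatin, a peak in fewer cells and a weaker peak in every cell cannot be told apart.

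The genes carried PCGF6 far more often in stem cells than in crypts. In stem cells 41 of the 53 genes (77.4%) had a PCGF6 peak, against 22.7% of all protein-coding genes, and 33 (62.3%) had a RING1B peak, against 17.8%. In wild-type AhCre crypts 17 (32.1%) had a PCGF6 peak, below the 39.9% of all genes. Crypt RING1B marked 4 genes in the AhCre line (7.55%, against 7.73% of all genes) and 6 in the Villin line (11.3%, against 14.2%). H2AK119ub1 was found in wild-type crypts at 5 (9.43%, against 16%) and 4 genes (7.55%, against 10.4%) of the AhCre and Villin lines. The stem cell shares thus stood well above the background, while the shares in these 5 wild-type crypt lists were near or below it. With the window around the transcription start alone, 2 of the 5 turned to slightly above it, AhCre RING1B with 4 of 46 genes (8.7%, against 7.43%) and AhCre H2AK119ub1 with 7 of 46 (15.2%, against 14.1%).

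**Figure D1:**
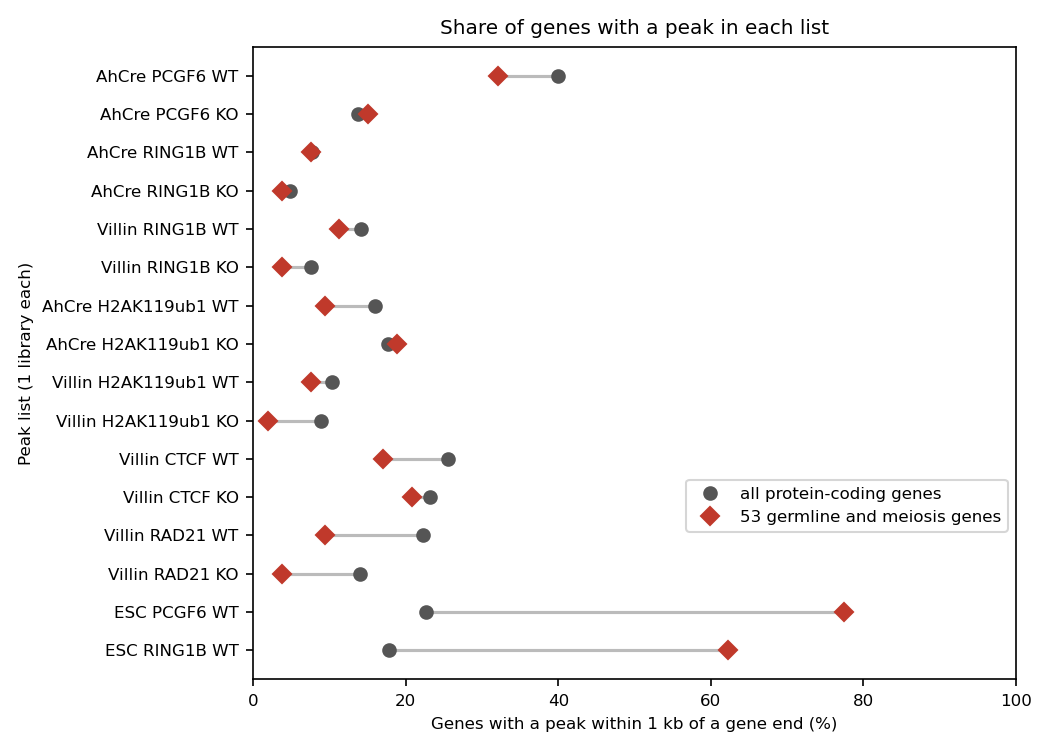
Share of genes with a peak within 1 kb of a gene end (x axis, percent) in each of 16 peak lists (y axis, 1 library each), for the 53 germline and meiosis genes (red diamonds) and all protein-coding genes (grey circles). In stem cells the genes stand at 77.4% for PCGF6 and 62.3% for RING1B, against 22.7% and 17.8% of all genes; in wild-type crypts the PCGF6 share is 32.1%, against 39.9%.

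Set side by side, the wild-type PCGF6 lists placed 15 genes in both cell types (28.3%, against 15.8% of all genes), 26 in stem cells but not crypts (49.1%, against 6.89%), 2 in crypts but not stem cells (3.77%, against 24.1%) and 10 in neither (18.9%, against 53.2%). The 15 shared genes were Syce2, Smc1b, Rec8, Mei1, Hormad1, Rad51c, Rnf212, Mlh3, Zcwpw1, Terb1, Terb2, Tdrkh, Tdrd1, Dazl and Tex14. Meiob and Msh5 had a peak in crypts alone. The 26 seen in stem cells alone included 5 of the 8 synaptonemal complex and cohesin genes, and 6 of the 8 genes of piRNA and retrotransposon control, that had stem cell PCGF6. The stem cell list is the shorter of the 2. Where peaks within 1 kb of another gene's end were set aside, an alternative added after the values were seen, the shared genes numbered 7 rather than 15, and the crypt total was 10 rather than 17, while 34 of the 41 stem cell genes remained.

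The promoters of 9 genes are shown because they stand for the different outcomes. Each is the RefSeq window (GRCm38.p6, which is mm10) from 250 bases before to 50 after a transcription start, written 5′ to 3′ along the gene in lower case. Capitals mark matches on either strand to GCGGGAA (E2F-type), to CACGTG (E-box, the same on both strands) or to GGTGTGA (T-box type), with overlapping matches counted. Zcwpw1, Tdrkh, Dazl and Syce2 carried PCGF6 in both cell types, Tex19.1 and Ddx4 in stem cells alone and Msh5 in crypts alone. Nanos2 had no Polycomb peak, and Stag3 was added after its values were seen.
Zcwpw1, chr5:137787552-137787851, plus strand: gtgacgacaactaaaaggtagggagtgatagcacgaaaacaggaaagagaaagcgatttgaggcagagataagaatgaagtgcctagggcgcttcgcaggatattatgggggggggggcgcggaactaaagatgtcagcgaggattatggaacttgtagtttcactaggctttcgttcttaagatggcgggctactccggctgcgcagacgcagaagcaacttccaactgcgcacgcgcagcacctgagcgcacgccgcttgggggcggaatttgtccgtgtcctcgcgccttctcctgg
Tdrkh, chr3:94412994-94413293, plus strand: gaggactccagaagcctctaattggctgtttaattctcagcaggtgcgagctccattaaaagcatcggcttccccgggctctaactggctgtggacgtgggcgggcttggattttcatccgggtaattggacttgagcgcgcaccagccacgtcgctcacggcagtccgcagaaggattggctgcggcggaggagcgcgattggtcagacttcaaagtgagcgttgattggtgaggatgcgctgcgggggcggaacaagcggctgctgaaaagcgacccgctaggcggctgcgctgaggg
Dazl, chr17:50293571-50293870, minus strand: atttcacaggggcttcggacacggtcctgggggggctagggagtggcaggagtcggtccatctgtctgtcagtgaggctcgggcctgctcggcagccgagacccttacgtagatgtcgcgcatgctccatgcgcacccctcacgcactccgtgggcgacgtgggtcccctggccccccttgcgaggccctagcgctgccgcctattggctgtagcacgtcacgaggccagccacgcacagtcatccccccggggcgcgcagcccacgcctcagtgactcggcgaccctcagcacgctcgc
Syce2, chr8:84872008-84872307, plus strand: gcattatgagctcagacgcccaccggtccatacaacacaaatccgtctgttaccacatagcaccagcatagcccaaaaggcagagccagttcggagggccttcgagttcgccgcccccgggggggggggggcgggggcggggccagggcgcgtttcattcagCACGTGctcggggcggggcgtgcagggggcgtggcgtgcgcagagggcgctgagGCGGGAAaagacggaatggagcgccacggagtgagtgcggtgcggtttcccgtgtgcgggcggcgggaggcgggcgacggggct
Tex19.1, chr11:121145893-121146192, plus strand: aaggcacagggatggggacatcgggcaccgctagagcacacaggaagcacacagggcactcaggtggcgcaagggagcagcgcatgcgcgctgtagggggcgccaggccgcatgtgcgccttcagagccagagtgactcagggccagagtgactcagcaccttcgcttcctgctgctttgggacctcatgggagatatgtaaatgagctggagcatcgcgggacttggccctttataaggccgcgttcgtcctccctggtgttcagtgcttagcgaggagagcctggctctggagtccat
Ddx4, chr13:112652261-112652560, minus strand: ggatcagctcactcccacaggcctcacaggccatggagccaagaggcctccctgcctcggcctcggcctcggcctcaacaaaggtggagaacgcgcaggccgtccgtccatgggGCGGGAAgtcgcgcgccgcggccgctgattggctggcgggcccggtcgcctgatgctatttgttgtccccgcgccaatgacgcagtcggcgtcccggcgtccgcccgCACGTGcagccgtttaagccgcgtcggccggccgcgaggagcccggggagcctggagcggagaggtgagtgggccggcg
Msh5, chr17:35046573-35046872, minus strand: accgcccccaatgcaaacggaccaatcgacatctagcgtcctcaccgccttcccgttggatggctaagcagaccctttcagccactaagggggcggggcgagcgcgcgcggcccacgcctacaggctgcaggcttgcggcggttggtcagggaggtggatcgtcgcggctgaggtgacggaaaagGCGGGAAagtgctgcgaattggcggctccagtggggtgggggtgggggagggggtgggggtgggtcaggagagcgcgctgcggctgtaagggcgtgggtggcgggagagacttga
Nanos2, chr7:18987274-18987573, plus strand: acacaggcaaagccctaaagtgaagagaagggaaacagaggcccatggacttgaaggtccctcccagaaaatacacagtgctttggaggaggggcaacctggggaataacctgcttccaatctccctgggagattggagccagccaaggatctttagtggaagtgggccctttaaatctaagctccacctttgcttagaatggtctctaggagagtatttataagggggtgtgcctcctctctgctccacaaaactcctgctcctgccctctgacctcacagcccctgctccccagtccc
Stag3, chr5:138280259-138280558, plus strand: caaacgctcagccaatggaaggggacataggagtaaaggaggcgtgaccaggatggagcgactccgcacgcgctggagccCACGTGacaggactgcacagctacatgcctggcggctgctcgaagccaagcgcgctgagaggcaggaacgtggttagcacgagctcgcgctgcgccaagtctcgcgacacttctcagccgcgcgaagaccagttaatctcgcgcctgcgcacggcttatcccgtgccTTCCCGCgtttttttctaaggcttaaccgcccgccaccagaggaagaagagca
The windows of Syce2, Ddx4 and Stag3 each held 1 E2F-type match and 1 E-box, that of Msh5 held 1 E2F-type match, and the other 5 held none of the 3 motifs. Nanos2 was the extreme in base composition, with 0 CpG in its window against 38 in that of Ddx4.

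Over the 46 genes with a window in the promoter table, 12 (26.1%) held the E2F-type motif, against 5.99% of 17491 gene promoters of the same length, and 17 (37.0%) held an E-box, against 7.90%. Both motifs stood together in 7 windows (15.2%, against 0.595%). The T-box type motif was found in 2 (4.35%, against 3.68%), close to the background. Among all genes with PCGF6 in stem cells, 10.2% held the E2F-type motif and 14.4% an E-box. By outcome, the E2F-type motif was in 6 of 14 windows of genes with PCGF6 in both cell types and in 4 of 23 of those with it in stem cells alone, against 10.8% and 8.76% of all genes with the same outcomes. The E-box was in 4 of 14 (28.6%) and 10 of 23 (43.5%), against 15.9% and 10.9%, so the order of the 2 outcomes for the E-box was the reverse of that over all genes. Hormad1 and Rnf212 count among the 14 and held both motifs, but their crypt peaks lay 28675 and 47664 bp from the start. The windows of Rad51c and Tex14, each with the E2F-type motif, overlap each other under 1 shared peak. A match is a run of letters and not evidence of binding. For a member with several starts in the promoter table and a PCGF6 peak, the window nearest its highest peak was used. Shares over all genes used the first window listed for each gene. The member windows were thus partly chosen by the peaks, and the 2 sets are not strictly alike. Spo11, Meiob, Tex11, Majin, Terb2, Piwil2 and Ctcfl have no entry in that table.

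CpG content also varied with where PCGF6 was found. The ratio of observed to expected CpG had a median of 0.802 (range 0.491 to 1.1) over the 14 genes with PCGF6 in both cell types, 0.625 (0.363 to 1.03) over the 23 with it in stem cells alone and 0.478 (0 to 1.06) over the 8 with neither. A ratio over 0.6 was found in 13 of 14, 12 of 23 and 1 of 8. The 1 of 8 was Stag3 (1.06), classed as neither by the gene-end rule although both cell types had PCGF6 at this start. The ranges of the first 2 groups overlapped widely. Over all genes the corresponding medians were 0.825, 0.707 and 0.271, so the same order was seen in the whole table and was not particular to germline genes. The windows were chosen as for the motifs, by different rules for the members and for all genes. Those of Hormad1 and Rnf212, counted under both cell types, again lay far from their crypt peaks.

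**Figure D2:**
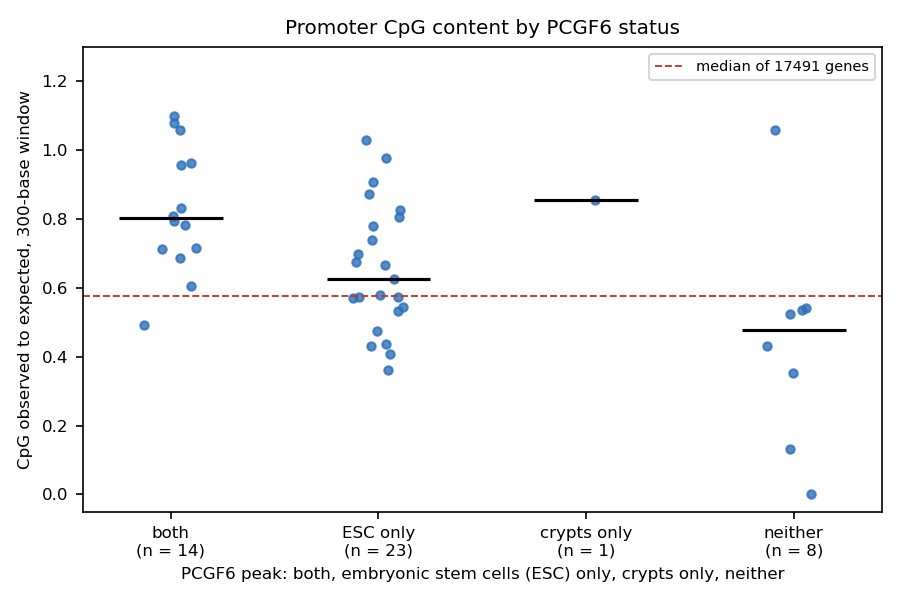
Observed to expected CpG ratio (y axis, no unit) of the 300-base promoter window of 46 genes, by PCGF6 outcome in wild-type AhCre crypts and stem cells (x axis); each point is a gene, the bars are medians and the dashed line is the median of 17491 gene promoters (0.576). Genes with PCGF6 in both cell types had a median of 0.802 and those with it in stem cells alone 0.625, and the point at 1.06 among genes with neither is Stag3. By the gene-end rule Stag3 is classed as neither, although both cell types had PCGF6 at this start. The dashed line uses the first window listed for each gene.

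Among the 9 genes of the synaptonemal complex, the protein zipper between paired chromosomes, and of meiotic cohesin, 8 had PCGF6 in stem cells and 3 in wild-type crypts. Sycp2, a lateral element protein, had a stem cell PCGF6 score of 372, rank 16 of 7850, and Sycp1, the transverse filament, 217, rank 72. Syce1, of the central element, scored 151, Sycp3, of the lateral element, 123, and Syce3, of the central element, 62.2. None of these 5 had a peak in any of the 10 crypt Polycomb lists, while each also had stem cell RING1B, with scores between 15.3 and 68.4. Smc1b, a meiotic cohesin subunit, went from rank 58 in stem cells (score 236) to rank 2479 of 17163 in crypts (41.3), and its peak also lies at the end of Ribc2. Rec8, the meiotic kleisin of cohesin, was weak in both lists (15.7 and 11.5).

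Syce2, which builds the central element, had peaks in the most lists of this group under the gene-end rule. Its PCGF6 peak (chr8:84871505-84873458, centred 223 bp downstream of the start) scored 189 in wild-type AhCre crypts, 35.8 in the knockout and 90.9 in stem cells. RING1B at Syce2 scored 16.3 in wild-type AhCre crypts with no peak in the knockout, 28.4 and 14.8 in wild-type and knockout Villin crypts, and 30.4 in stem cells. H2AK119ub1 scored 12.9 in knockout AhCre crypts and 12.5 in wild-type Villin crypts, with no peak in the other 2 lists. CTCF scored 106 and 51.6 and RAD21 27.6 with no knockout peak. The gene thus had a peak in 12 of the 16 lists, and its mark was low in every H2AK119ub1 list that held it.

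Stag3, the meiotic STAG subunit of cohesin, has no peak by the gene-end rule because the gene table opens the gene upstream of the start used in the promoter table. At that second start (position 138280509) a PCGF6 peak scored 683 in wild-type crypts (chr5:138279595-138282096, rank 21 of 17163), 165 in the knockout (rank 18 of 4779) and 405 in stem cells (chr5:138279803-138281266, rank 14 of 7850). RING1B there scored 33.6 and 16.7 in wild-type and knockout AhCre crypts, 57.4 and 14.8 in Villin crypts, and 105 in stem cells. H2AK119ub1 scored 11.4 and 13.7 in the AhCre line and 15.7 and 11.4 in the Villin line. All 12 Polycomb lists thus held a peak within 1 kb of this start, and each of those peaks also lies within 1 kb of an end of Gpc2. Stag3 is counted as having no peak wherever the gene-end rule is used.

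Recombination genes made the largest group, 15, of which 11 had PCGF6 in stem cells and 8 in crypts. Zcwpw1, a reader of the histone marks that PRDM9 writes, had the highest PCGF6 score of the 53 in both cell types. It scored 902 in wild-type AhCre crypts (chr5:137785707-137788789, rank 11 of 17163), 112 in the knockout (rank 47 of 4779) and 528 in stem cells (chr5:137787368-137788739, rank 4 of 7850). RING1B at Zcwpw1 scored 11.4 and 11.04 in wild-type and knockout AhCre crypts, 94.99 in wild-type Villin crypts with no knockout peak, and 114 in stem cells. Its H2AK119ub1 peak appeared in wild-type Villin crypts alone (12.9), CTCF scored 49.1 and 21.8, and RAD21 had none. The PCGF6 peak stayed near the top of its list in all 3 lists, whereas the 2 wild-type crypt RING1B lists placed the gene at rank 1923 of 2368 and 171 of 4403. An end of Mepce also lies within 1 kb of that PCGF6 peak.

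Several recombination genes shared by the 2 PCGF6 lists had the peak in a different place or a different rank. Hormad1, a chromosome axis protein that oversees synapsis, scored 180.1 in stem cells at its start, and its weak crypt peak (12.3) lay 28675 bp from the start, at the other gene end beside Golph3l. Rnf212, which marks crossover sites, scored 163 at its start in stem cells and 14.5 in crypts at a peak 47664 bp downstream. Mei1, needed for double-strand break formation, had a crypt peak of 55.6 beside Ccdc134, 45023 bp from the start in the promoter table, although 1 of its stem cell peaks overlapped it. These 3 crypt peaks were thus not at the promoter. Mlh3, a crossover nuclease subunit also used in mismatch repair, was stronger in crypts, with rank 1339 of 17163 (60.8) against 3650 of 7850 (18.2) in stem cells. Rad51c, a recombination gene that also serves somatic repair, shared 1 peak with its neighbour Tex14 (chr11:87404058-87405307 in crypts), which scored 47.5 in crypts and 45.7 in stem cells.

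Msh5, which stabilises crossover intermediates with MSH4, had a crypt PCGF6 peak of 37.8 (chr17:35045548-35048134) and none in stem cells, while Msh4 had the opposite (139 in stem cells, none in crypts). H2AK119ub1 near Msh5 scored 14.8 and 11.9 in wild-type and knockout AhCre crypts, at the far end of the gene, 15207 bp from the start in wild type. Meiob, a single-strand DNA binding partner in meiosis, scored 21.8 for crypt PCGF6 (chr17:24803796-24804613). RING1B there scored 11.9 and 13.6 in wild-type AhCre and Villin crypts, with no peak in either knockout, and 16.02 in stem cells. Meiob was thus the 1 gene with RING1B but no PCGF6 in stem cells. Hormad2, a synapsis checkpoint protein, scored 174 in stem cells, Tex11, an X-linked crossover factor, 40.1, Dmc1, the meiotic recombinase, 37.6, and Mei4, of the break-forming machinery, 21.6. None of these 4 had PCGF6 in crypts.

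All 3 genes for attachment of telomeres to the nuclear envelope had PCGF6 in stem cells. Terb1 scored 111 in stem cells, 104 in wild-type AhCre crypts (rank 557) and 26.1 in the knockout, with RING1B of 19.5 in wild-type Villin crypts and 18.2 in stem cells. Its PCGF6 peak also lies within 1 kb of an end of Nae1. Terb2 scored 88.3 in stem cells, and its crypt peak of 10.1, at the opposite gene end, was the weakest of the 17. Majin, the membrane anchor of the same complex, scored 96.4 for PCGF6 and 28.3 for RING1B in stem cells, with no peak in crypts.

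The piRNA pathway silences transposons in germ cells, and 8 of 11 genes of that pathway and of retrotransposon control had PCGF6 in stem cells against 2 in crypts. Tdrkh, a mitochondrial scaffold for piRNA trimming, was strong in both. Its PCGF6 peak scored 466 in wild-type AhCre crypts (chr3:94412230-94414477, rank 39), 56.2 in the knockout (rank 207) and 300.4 in stem cells (chr3:94412261-94413903, rank 32). RING1B scored 29.3 and 11.6 in wild-type and knockout AhCre crypts, 42.4 and 16.01 in Villin crypts, and 90.4 in stem cells, and H2AK119ub1 scored 13.9 and 11.4 in the AhCre line. Under the gene-end rule, Tdrkh had a peak in the most crypt Polycomb lists, 8 of 10, and it lacked H2AK119ub1 in both Villin lists. Tdrd1, a Tudor scaffold of the nuage, scored 84.0 in crypts, 14.8 in the knockout and 179 in stem cells.

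The other 6 had PCGF6 in stem cells alone. Tex19.1, which restrains retrotransposons in germ cells and placenta, scored 514 (chr11:121145033-121147447, rank 6 of 7850). Ddx4, the germ cell RNA helicase also called Vasa, scored 509 (chr13:112651644-112652649, rank 7), Mael, a piRNA factor, 258 (rank 47) and Tdrd12, of secondary piRNA production, 166 (rank 107). In stem cells RING1B scored 110.3 at Ddx4, 51.6 at Tex19.1, 49.4 at Mael and 15.1 at Tdrd12. Mov10l1, the helicase that starts piRNA processing, scored 152, and Tdrd9, a nuclear piRNA helicase, 46.2 without RING1B. Tex19.1 and Ddx4 thus had stem cell scores next to that of Zcwpw1 but no PCGF6 or RING1B peak in any crypt list. Ddx4 did have H2AK119ub1 in AhCre crypts (18.4 and 17.9 in wild type and knockout). The wild-type peak also lies within 1 kb of an end of Slc38a9, and the knockout peak of 17.9 does not. Piwil1, Piwil2 and Piwil4, the Argonaute proteins that bind piRNAs, had no peak in any list.

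Of the 8 genes of germ cell fate and meiotic entry, 4 had PCGF6 in stem cells and 1 in crypts. Meioc, which keeps meiotic transcripts stable, scored 342 (rank 20) with RING1B of 95.2 in stem cells, and in crypts had a single H2AK119ub1 peak, in the AhCre knockout (12.9). Figla, an oocyte transcription factor, and Sohlh2, a factor of early gametogenesis, had low stem cell PCGF6 scores of 30.3 and 27.0 and no RING1B. Dazl, a germ cell RNA-binding protein, scored 98.8 for PCGF6 in wild-type AhCre crypts (chr17:50292959-50293834, rank 619), 19.07 in the knockout and 205 in stem cells (chr17:50292624-50294127, rank 81). RING1B at Dazl was found in stem cells (57.0) and in none of the 4 crypt lists. Stra8, the retinoic-acid-induced gatekeeper of meiosis, had no PCGF6 or RING1B peak in any list but carried H2AK119ub1 of 19.8 and 20.1 in wild-type and knockout AhCre crypts and 10.5 in wild-type Villin crypts. Nanos2, Nanos3 and Sohlh1, regulators of germ cell maintenance, had no Polycomb peak.

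All 7 genes outside those groups had PCGF6 in stem cells, and 1, Tex14, had it in crypts through the peak it shares with Rad51c. Stk31, a germ cell kinase with a Tudor domain, scored 274 (rank 37), Slc25a31, a germ cell ATP carrier, 199.6 (rank 85), and Ctcfl, the testis paralog of CTCF also called BORIS, 101. Brdt, a testis bromodomain protein, scored 87.1, Taf7l, a germ cell subunit of TFIID, 66.9, and Tex101, a testis surface protein, 23.2. Of these 6, 5 also had stem cell RING1B, with scores of 12.6 to 50.5, and Tex101 did not. No peak of any crypt list lay at these 6 genes.

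**Figure D3:**
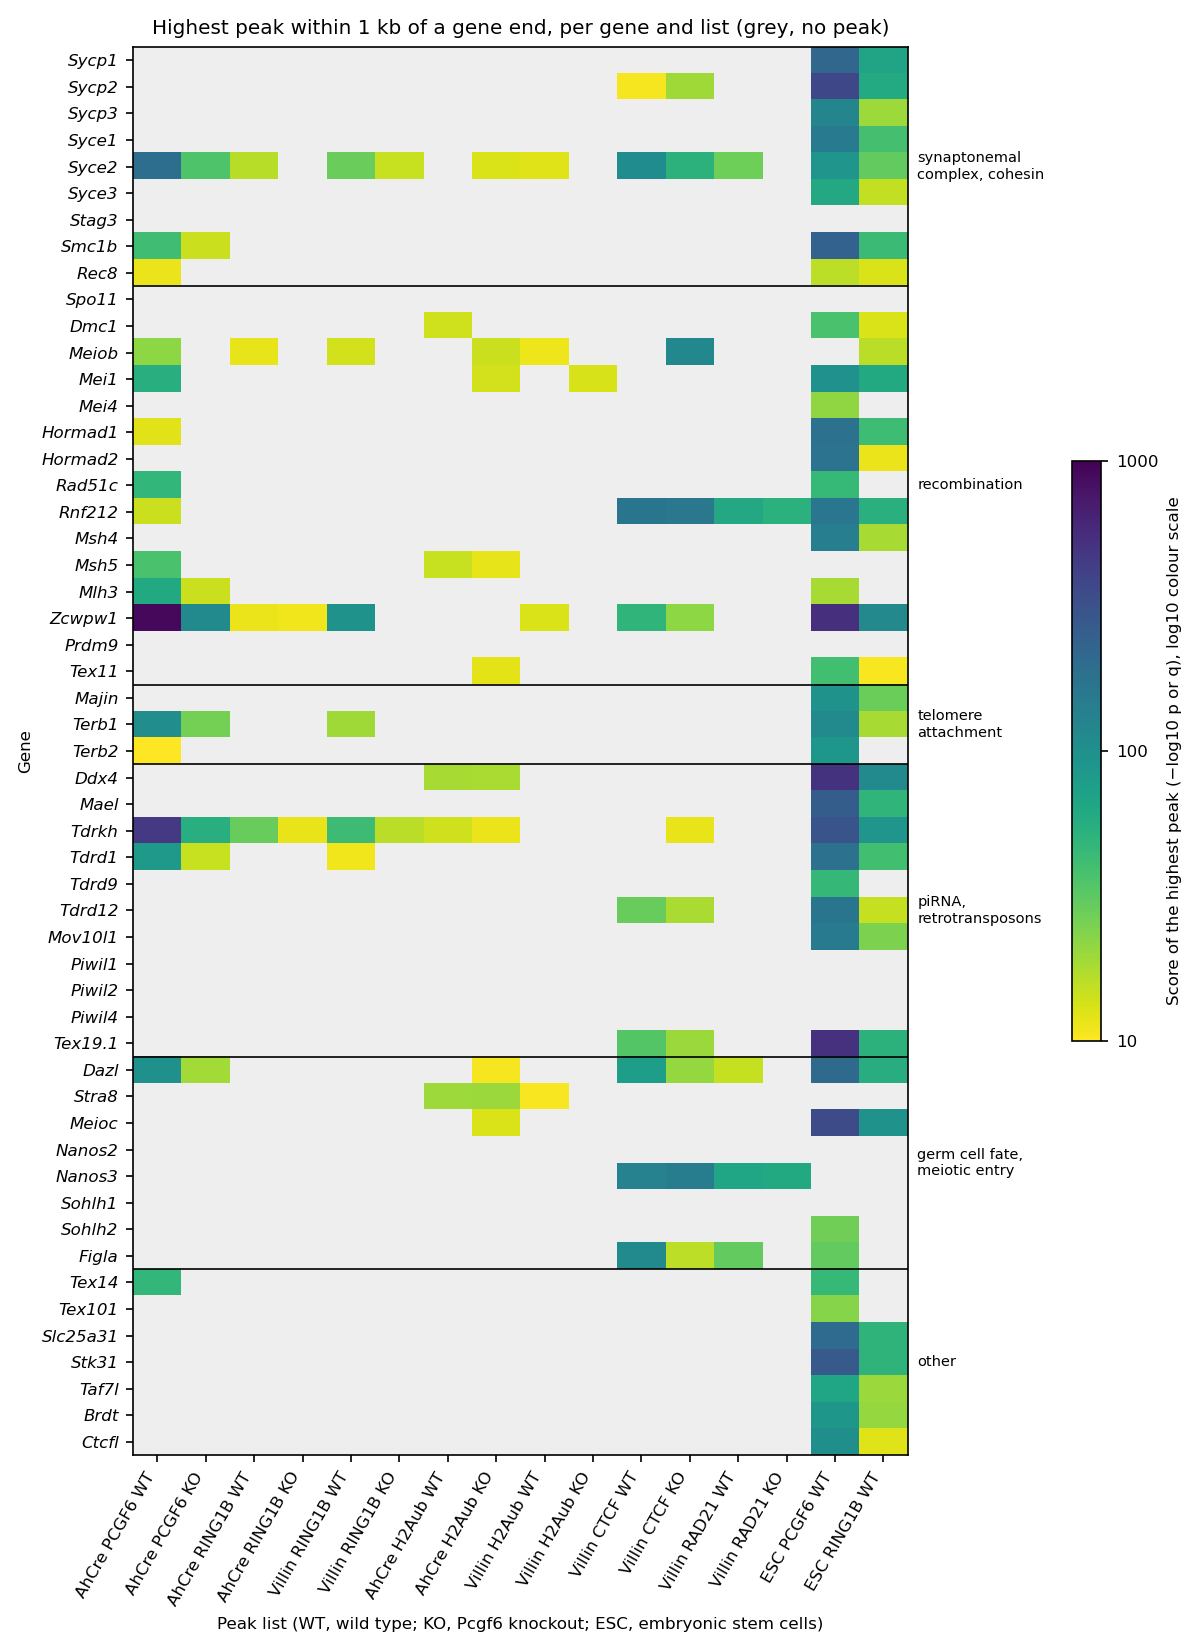
Score of the highest peak within 1 kb of a gene end (colour, −log10 p or q on a log10 colour scale; grey, no peak) for 53 genes (rows, by role) in 16 peak lists (columns; H2Aub stands for H2AK119ub1, WT for wild type, KO for Pcgf6 knockout, ESC for embryonic stem cells). The 2 stem cell columns on the right are filled for 41 and 33 genes, while the wild-type AhCre PCGF6 column on the left is filled for 17.

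The stem cell PCGF6 peaks at these genes were also strong ones. Of the 41, 28 were in the top 5% of the list and 30 in the top 10% (73.2%, against 12.1% of all gene-end peaks), with a median score of 123 against 18.9 over all genes. In wild-type crypts 8 of 17 were in the top 10% (47.1%, against 12.6%), with a median of 47.5 against 21.4. Member shares count each gene by its highest peak, with Rad51c and Tex14 on the same peak. The shares of gene-end peaks count every peak, so the units differ. Stem cell RING1B at the same genes was of middling strength, with 0 of 33 in the top 10% of that list (against 13.2% of gene-end peaks), a median score of 38.9 against 39.1 and the best place at Zcwpw1, rank 1049 of 5974. Of the 15 genes shared between crypts and stem cells, 12 ranked higher in their list in stem cells by percentile, and Syce2, Mlh3 and Tdrkh ranked higher in crypts. Strength in stem cells did not separate the shared genes, whose stem cell scores ran from 15.7 to 528 with a median of 111, from the 26 without a crypt peak, which ran from 21.6 to 514 with a median of 131.

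**Figure D4:**
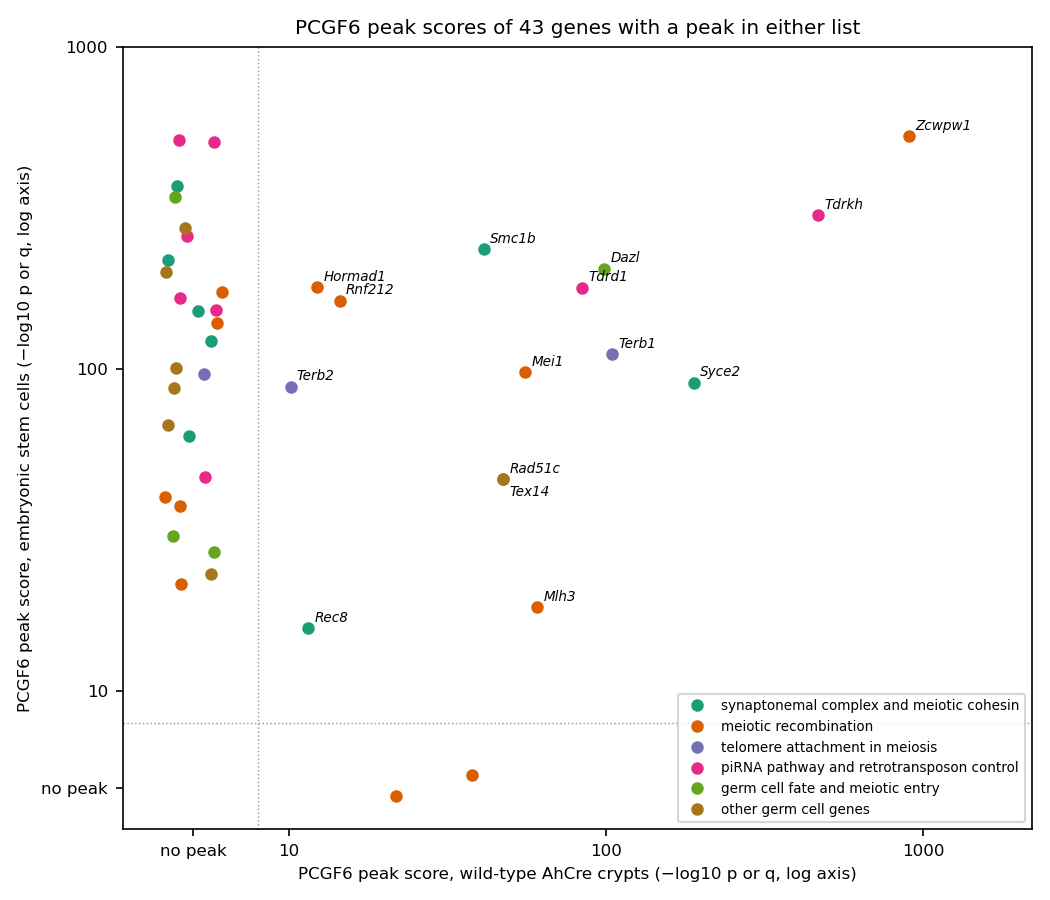
PCGF6 peak scores in wild-type AhCre crypts (x axis, −log10 p or q, log axis) and embryonic stem cells (y axis, same scale) for the 43 genes with a peak in either list, coloured by role; genes without a peak in 1 list are spread along that list's "no peak" strip. Zcwpw1 is at 902 and 528 and Tdrkh at 466 and 300.4, while 26 genes lie on the left strip with stem cell scores up to 514; the 2 points at the foot are Meiob and Msh5.

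Most PCGF6 and RING1B peaks sat on the promoter. The centre lay within 500 bp of a transcription start for 34 of 37 stem cell PCGF6 genes with a known start (median distance 130 bp), 12 of 15 in wild-type crypts (219 bp) and 26 of 29 for stem cell RING1B (143 bp). The 3 distant crypt peaks were those of Hormad1, Rnf212 and Mei1. In wild-type crypts the centre was within 500 bp at 1 of 5 genes for AhCre H2AK119ub1 and 2 of 3 for Villin H2AK119ub1. It was that close at 3 of 9 for CTCF and 1 of 5 for RAD21. The rule admits only peaks near a gene end, and the share over all genes was not computed. Of the 17 crypt PCGF6 genes, 12 had a peak that overlapped a stem cell PCGF6 peak, Rad51c and Tex14 through the same one. Of all gene-end crypt PCGF6 peaks, counted by peak and not by gene, 38.0% did so. Meiob, Hormad1, Rnf212, Msh5 and Terb2 had no such overlap.

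**Figure D5:**
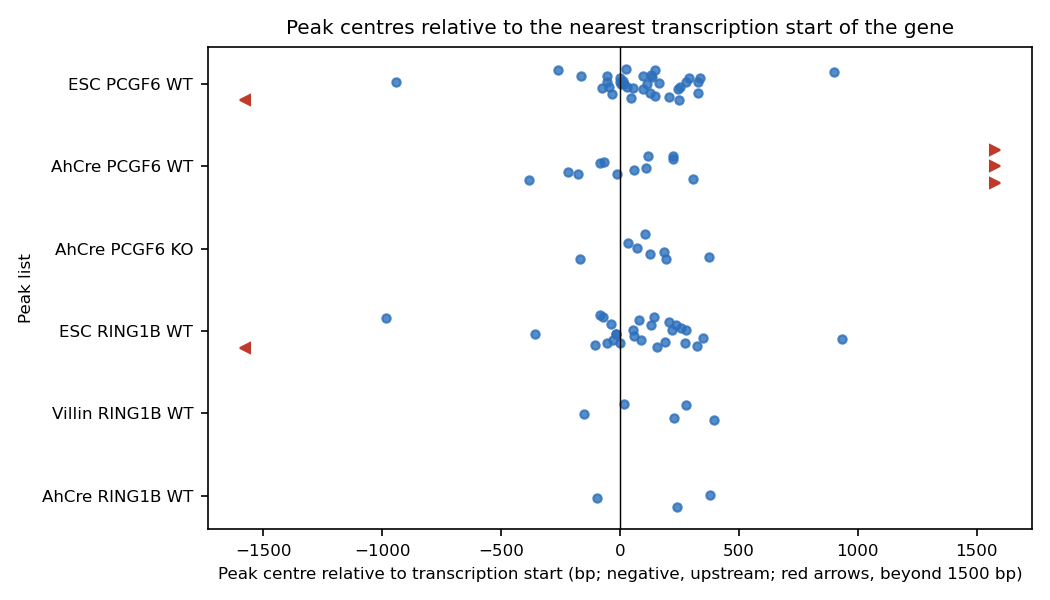
Distance in bp from the nearest transcription start of the gene to the centre of its highest peak (x axis; negative is upstream) in 6 lists (y axis), 1 point per gene with a start in the promoter table; red arrows mark centres beyond 1500 bp. Of 37 stem cell PCGF6 genes, 34 lie within 500 bp; the 3 arrows in the wild-type crypt row are Hormad1, Rnf212 and Mei1.

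In stem cells most of these genes with PCGF6 also had RING1B, and in wild-type crypts a minority did. The wild-type crypt RING1B lists are shorter, with 2368 (AhCre) and 4403 (Villin) peaks against 17163 for PCGF6. In stem cells 32 genes had both, which is 78.0% of the 41 with PCGF6 and 97.0% of the 33 with RING1B (49.8% and 63.3% over all genes), and in all 32 the peaks themselves overlapped. The 9 with PCGF6 alone were Mei4, Rad51c, Mlh3, Terb2, Tdrd9, Sohlh2, Figla, Tex14 and Tex101. In wild-type crypts the 4 genes with AhCre RING1B (Syce2, Meiob, Zcwpw1 and Tdrkh) and the 6 with Villin RING1B (the same 4, Terb1 and Tdrd1) all had crypt PCGF6. Over all genes, 62.6% of those with AhCre RING1B and 72.4% of those with Villin RING1B had it too. The 4 and 6 genes made 23.5% and 35.3% of the 17, against 12.1% and 25.8% over all genes with crypt PCGF6. Under the gene-end rule with the full lists, every gene with crypt RING1B also had it in stem cells. Thus 4 genes had it in AhCre crypts and stem cells (7.55%, against 5.01% of all genes), 0 in AhCre crypts alone (against 2.72%), 29 in stem cells alone (54.7%, against 12.8%) and 20 in neither (37.7%, against 79.4%). For the Villin line the shared genes were 6 (11.3%, against 7.61%), with 0 in crypts alone (against 6.61%), 27 in stem cells alone (50.9%, against 10.2%) and 20 in neither (37.7%, against 75.5%). With both lists of a comparison held to equal length, RING1B was shared by AhCre crypts and stem cells at 2 genes, in crypts alone at 2, in stem cells alone at 12 and in neither at 37, and 1 gene had it in Villin crypts alone. A window of 0 bp also left 1 gene in Villin crypts alone.

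Little Polycomb signal of any kind was found in crypts at the 26 genes with PCGF6 in stem cells alone. Of these, 4 (Dmc1, Tex11, Ddx4 and Meioc) had a peak in any of the 10 crypt Polycomb lists, all of them H2AK119ub1, whereas 56.4% of the 1507 genes with the same PCGF6 outcome had one. By the gene-end rule, 8 of all 53 genes had no peak in any of the 16 lists (15.1%, against 37.2% of all genes), namely Stag3, Spo11, Prdm9, Piwil1, Piwil2, Piwil4, Nanos2 and Sohlh1. Stem cell PCGF6 peaks lay farther from the ends of some of these genes. That of Stag3 scored 405 and lay 7289 bp from an end, at the start given in the promoter table. Spo11, the enzyme that makes meiotic double-strand breaks, had one of 196 inside the gene, 2032 bp from an end. The nearest to an end of Piwil2 scored 23.7 and lay outside the gene at 5957 bp, and 1 other lay inside it. Prdm9, which sets recombination hotspots, had its nearest at 15605 bp and Piwil1 at 470177 bp.

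In knockout AhCre crypts 8 genes had a PCGF6 peak (15.1%, against 13.7% of all genes), and 9 of the 17 wild-type genes lost theirs (52.9%, against 64.4% of all genes with a wild-type peak) and 0 gained one (against 0.152%). A loss means that no knockout peak lay in the window or overlapped the wild-type peak. The lost genes were Hormad1, Mei1, Meiob, Msh5, Rad51c, Rec8, Rnf212, Terb2 and Tex14, with wild-type scores of 10.1 to 55.6 (median 21.8). The 8 that kept a peak, Syce2, Smc1b, Mlh3, Zcwpw1, Terb1, Tdrkh, Tdrd1 and Dazl, had wild-type scores of 41.3 to 902 (median 102) and knockout scores of 14.5 to 112. The knockout list is much shorter, and with both lists held to its length 4 genes lost their peak, as 4 did when the window was drawn around the transcription start alone. Why these 8 peaks are listed in the knockout was not tested. At Pcgf6 itself, a PCGF6 peak of 20.8 was listed in wild-type crypts and none in the knockout, which does not check the deletion. This comparison and that of crypts with stem cells share the wild-type AhCre list.

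Crypt RING1B at these genes was scarce in the knockouts too. Peaks remained at 2 genes in each line (3.77%, against 4.89% of all genes in AhCre and 7.61% in Villin knockouts). In the AhCre line 2 of 4 were lost (50%, against 44.7%), Meiob and Syce2, and Zcwpw1 and Tdrkh were kept. In the Villin line 4 of 6 were lost (66.7%, against 53.7%), Meiob, Tdrd1, Terb1 and Zcwpw1, and Syce2 and Tdrkh were kept. No gene gained RING1B (0.783% and 1.31% of all genes did). Meiob was lost and Tdrkh kept in both lines, and Zcwpw1 and Syce2 went opposite ways between them, all with 1 library a group. These counts are small and close to the background.

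H2AK119ub1 moved in different directions in the 2 lines. In knockout AhCre crypts 10 genes were marked (18.9%, against 17.7% of all genes) where 5 were in wild type. Of those 5, Dmc1 lost its peak (20%, against 12.9%), and Dazl, Meiob, Meioc, Syce2 and Tex11 gained one (5 genes, against 4.26% of unmarked genes), with gained scores between 10.7 and 14.5. Mei1 made the tenth, with a knockout peak of 13.7 in the window, and was not counted as a gain because that peak overlapped a wild-type peak outside the window. In knockout Villin crypts 1 gene was marked (1.89%, against 8.84%). All 4 wild-type peaks, at Meiob, Stra8, Syce2 and Zcwpw1, were lost (against 29.3%), and Mei1 gained one of 13.3 (against 1.81%). Around the transcription start alone, wild-type AhCre crypts had 7 of 46 genes marked (15.2%, against 14.1%) and knockout crypts 8 (17.4%, against 15.7%). The AhCre doubling was thus not seen there. Villin crypts had 3 (6.52%, against 9.47%) and 1 (2.17%, against 7.93%) by that window. The highest H2AK119ub1 score at these genes was 20.1, against a list minimum of 10, and with a minimum of 20 both lines had 0 marked genes in wild type. These chromatin samples carried 5% Drosophila S2 chromatin as a spike, which was not used to scale the lists here.

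CTCF and RAD21 were found at few of the genes in Villin crypts. CTCF was found at 9 in wild type (17%, against 25.5%) and 11 in the knockout (20.8%, against 23.2%), with 0 lost (against 12.0%) and 1, Tdrkh (11.6), gained (against 1.26%). The knockout CTCF share was near the background, and around the transcription start alone it was above it, with 9 of 46 genes (19.6%, against 17.5%). Meiob also had a CTCF peak (116) in the knockout and none in the wild-type window, but by the overlap rule that peak was not a gain. RAD21 was at 5 in wild type (9.43%, against 22.2%) and 2 in the knockout (3.77%, against 14%). Rnf212 and Nanos3 carried both proteins in both genotypes. At Nanos3 CTCF scored 129.9 and 142 and RAD21 67.2 and 60.8 in wild type and knockout, and at Rnf212 CTCF scored 166 and 162 and RAD21 61.8 and 52.95. Dazl, Figla and Syce2 lost RAD21 (3 of 5, against 41.1%) and none gained it (against 1.62%), and at all 3 the CTCF score was lower in the knockout, from 76.0 to 20.6 at Dazl, 109.9 to 15.9 at Figla and 106 to 51.6 at Syce2. Their CTCF ranks went from 14587, 10567 and 10935 of 32651 to 26603, 28873 and 18263 of 32143. CTCF also scored lower at Rnf212, which kept RAD21. The same held at Zcwpw1 (49.1 to 21.8), Tdrd12 (29.3 to 18.1) and Tex19.1 (34.5 to 20.1), which had no RAD21 peak. CTCF scored higher at Sycp2 (10.7 to 19.4) and Nanos3. Whether those score differences exceed library variation was not tested.

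Other gene lists gave a frame for these counts. Of 35 further germline and meiosis genes, 19 (54.3%) had PCGF6 in stem cells, 11 (31.4%) in wild-type crypts and 13 (37.1%) in stem cells alone, with the highest stem cell scores at Tex12 (317), Iho1 (162) and Gpat2 (137). The highest in crypts were Hsf2bp (76.4), Cntd1 (73.4) and Tex12 (41.3). Genes of the later spermatid stage differed, with 6 of 25 (24.0%) in stem cells, 5 (20%) in crypts and 1 in stem cells alone, near or below the background of 22.7%, 39.9% and 6.89%. The 14 genes for PRC1.6 subunits went the other way, with all 14 in crypts and 9 (64.3%) in stem cells, led in both by Mga (1180 in crypts and 567 in stem cells). None of the 14 was seen in stem cells alone, and 7 had a PCGF6 peak in knockout crypts. The pattern of stem cell PCGF6 without crypt PCGF6 was thus shared by the further meiosis genes and not by the spermatid or subunit genes in these counts. Members and lists alike were chosen with earlier results of these data known, so these shares are a description and not independent support.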

How the data were processed

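ChIP-seq was deposited for 22 samples, of which 16 have a peak list and 6 are inputs (not used here). Each list gives positions and, by the values, a −log10 p or q score per peak as deposited by the authors. Tools named in the submitters' processing notes are MACS2 2.1.1 and Bowtie (1.1.2, 1.2.2), beside the genomes hg38, dm6 and mm10, without roles, and per the labels wild-type input served as the peak-calling reference. Stem cell antibodies were read from titles and antibody tags, since the 2 description lines are swapped. The members and lists were chosen with earlier results of these data known.

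Peaks were assigned to 21883 RefSeq protein-coding genes (GRCm38.p6) by 1 bp or more within 1 kb of a gene end, with Python 3.11.15, pandas 2.3.3 and numpy 2.4.6. Assignment matched bedtools 2.31.1 in all 16 lists. When 200 peaks were removed from a copy of the stem cell PCGF6 list, 200 of 200 were found to lack a counterpart. Tested on simulated data, peaks planted at gene ends were assigned to 200 of 200 genes. Working code must give both outcomes, so they check the code and not the calls of loss and gain. Background shares are the same counts over all genes. With 1 library a group, no test was made. Every member was accounted for, with most space for the 10 highest by rank in the wild-type crypt or stem cell PCGF6 list. The printed promoters followed a rule (the 4 highest by mean rank in both, 2 in stem cells alone, 2 in crypts alone where the table had them, 1 without a Polycomb peak), and Stag3 was added. Other windows, score minimums, list lengths and overlap rules were tried.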

Additional observations from a re-analysis of the deposited data

Results flagged for a closer look

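The number of genes with H2AK119ub1 changed in opposite directions in the 2 Cre lines after Pcgf6 loss. Knockout minus wild type was 5 genes in AhCre crypts (from 5 to 10) and -3 in Villin crypts (from 4 to 1). Over all protein-coding genes the counts also went opposite ways, from 3509 to 3872 in AhCre and from 2266 to 1935 in Villin crypts. Around the transcription start alone, the counts of these genes went from 7 to 8 in AhCre and from 3 to 1 in Villin crypts. The difference between the lines was not tested, since each group is 1 library.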

How the results depend on the processing

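Over 42 counts, 171 of 242 alternative values stayed within 1.5 times the reported count and 71 did not. The count of genes with PCGF6 in stem cells but not crypts (26) stayed within that bound under every alternative run, and asking for an overlap of 50% of the shorter peak moved no count of losses or gains past it. No paired analysis was possible because each group is 1 library with no replicate number, and none could be left out for the same reason. The cause of each shift below was not tested beyond what the setting itself removes or adds, and the depth behind the lists is unknown.

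With peaks near another gene's end set aside (added after seeing the data), PCGF6 was at 10 genes in wild-type and 5 in knockout AhCre crypts, 7 in both cell types and 16 in neither. With lists of equal length, stem cell RING1B not shared with AhCre crypts was at 12 genes, shared at 2, crypts alone 2 and neither 37, and crypts alone for the Villin line was 1. The same setting gave losses of 4 for PCGF6, 1 for AhCre RING1B and 2 for Villin RING1B, and gains of 1 for AhCre RING1B and 2 for CTCF. The window rule alone gave 2 gains of CTCF.

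With a score minimum of 20, RING1B was shared with stem cells at 1 gene (AhCre) and 3 genes (Villin), and at neither for 32 in both lines. Genes with a peak numbered 4 for knockout PCGF6, 1 and 0 for wild-type and knockout AhCre RING1B, 3 and 0 for Villin RING1B, 0 and 1 for AhCre H2AK119ub1, 0 and 0 for Villin H2AK119ub1, 7 for knockout CTCF and 21 for stem cell RING1B. Losses were 0 for H2AK119ub1 in either line, 1 for AhCre RING1B and 2 for CTCF, and gains were 1 for AhCre H2AK119ub1, 0 for Villin H2AK119ub1 and 0 for CTCF.

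With the window around the transcription start alone (46 genes), PCGF6 in crypts alone was at 1 gene. Losses were 4 for PCGF6, 1 for AhCre RING1B, 2 for AhCre H2AK119ub1 and 2 for Villin H2AK119ub1, gains 3 and 0 for H2AK119ub1 in AhCre and Villin crypts, and RAD21 was at 3 and 1 genes in wild type and knockout.

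With a window of 0 bp, RING1B was shared with stem cells at 1 gene (AhCre) and 3 (Villin), and 1 was in Villin crypts alone. Genes with a peak numbered 1 and 1 for AhCre RING1B, 0 for knockout Villin RING1B, 3 and 5 for AhCre H2AK119ub1, 0 for wild-type Villin H2AK119ub1, 5 and 6 for CTCF and 1 and 1 for RAD21, and losses were 0 for AhCre RING1B, 0 for Villin H2AK119ub1 and 1 for RAD21. With a window of 5 kb they numbered 10 for wild-type AhCre H2AK119ub1, 7 and 4 for Villin H2AK119ub1, 27 and 28 for CTCF, 18 and 10 for RAD21 and 4 for knockout Villin RING1B, with 7 losses of RAD21.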
